A study of Danio rerio with 12 samples.

Results

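Beclomethasone was compared with its vehicle in macrophages of wounded zebrafish larvae, using the 6 of the 12 samples of the series that came from amputated larvae. The larvae of all groups carried the Tg(mpeg1.4:mCherry-F) reporter, in which a red fluorescent protein is driven by the mpeg1 promoter, and those of the compared groups had part of the tail cut off at 3 days post fertilization (dpf). The Amp+Beclo group held 3 samples of larvae exposed to 25 µM beclomethasone for 2 h before the amputation and again after it. Its vehicle group, Amp, held 3 samples of larvae kept in the same way in 0.05% dimethyl sulfoxide. The other 6 samples came from unwounded larvae, 3 with beclomethasone (Beclo) and 3 with vehicle (Control), and were used to see the effect of the drug without a wound. Cells of 100 to 150 embryos were pooled per sample at 4 h post amputation (hpa), red cells were sorted, and actinomycin D was present to stop transcription during the isolation. The comparison addressed which genes the drug raised or lowered in macrophages after wounding.

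Beclomethasone is a synthetic glucocorticoid. Such steroids bind the glucocorticoid receptor in the cytoplasm, which then moves to the nucleus, activates genes near its binding sites and represses many inflammatory genes by interfering with other transcription factors. In macrophages of mammals, glucocorticoids are known for inducing feedback inhibitors, clock and metabolic genes and scavenger receptors and for lowering cytokine expression.

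The Amp+Beclo libraries held 9488569 to 12289405 reads on genes and the Amp libraries 10894542 to 16107041. Macrophage markers were present in all of them. An MPEG1 gene (ENSDARG00000055290), of the family whose promoter drives the reporter, measured 1197, 453 and 321 CPM in the Amp+Beclo samples, against 1385, 1406 and 170.0 CPM in the Amp samples, where CPM are read counts scaled to library size, and csf1ra, a growth factor receptor of macrophages, measured 367, 263 and 223 CPM in the Amp+Beclo samples, against 285, 179.5 and 108 CPM in the Amp samples. Muscle markers were abundant too, with summed levels of 27732 to 85085 CPM in the Amp+Beclo samples and 47252 to 148222 CPM in the Amp samples, against macrophage marker sums of 8570 to 28509 CPM in the Amp+Beclo samples and 13165 to 36796 CPM in the Amp samples. Transcripts of other tissues were thus present in the sorted material, and in such bulk samples fewer cells of a type and less RNA per cell cannot be told apart. The share of reads outside genes did not overlap between the groups. It was 10.7%, 11.5% and 11.8% in the Amp+Beclo samples, against 10.1%, 6.55% and 4.72% in the Amp samples. The scaling factor (TMM, the trimmed mean of M values) was 1.01, 1.08 and 1.15 in the Amp+Beclo samples, against 1.09, 0.794 and 0.747 in the Amp samples, so it overlapped and was lower in the treated sample of pair 1. Samples 2 and 3 of Amp stood apart from sample 1 of Amp in both measures. The summed levels of neural markers (1567 to 1664 CPM in the Amp+Beclo samples and 1979 to 3225 CPM in the Amp samples), erythrocyte markers and pigment cell markers were lower in all treated samples than in all vehicle samples. The part of these differences in the gene results was not tested beyond a fit with the outside share as a covariate, which cannot separate that share from the drug.

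Beclomethasone raised many more genes than it lowered in wounded larvae. Of 21742 genes tested, 56 were higher in Amp+Beclo (0.258%) and 9 were lower (0.0414%) at an adjusted p below 0.05 (edgeR quasi-likelihood test, Benjamini-Hochberg). These 65 genes (0.299%) all changed by more than 2-fold. The raised genes had a median log2 fold change of 2.97 and ranged from 2.17 (prokr1a, a prokineticin receptor) to 4.80 (kif9, a kinesin). All 56 were higher in each of the 3 replicate pairs, and in 52 of them the lowest Amp+Beclo sample was above the highest Amp sample, an ordering found in 8.77% of all genes tested. The 9 lowered genes were lower in each pair, 7 of them without overlap, which 7.06% of all genes showed. The choice of the 65 genes in these same samples favours such counts, so they add no separate support. The median of all genes was 0.14 on the same log2 scale. In Amp+Beclo, the group in which the raised genes were chosen as high, 41 of the 56 averaged at least 10 CPM and 9 at least 100 CPM. Their levels in Amp were lower, and only 31 of the 65 genes held at least 10 reads in every sample. The number of calls fell when replicates were left out: 1 gene was called without replicate 1, 9 without replicate 2 and 13 without replicate 3. At an unadjusted p below 0.05 (edgeR) the counts were 3813, 440 and 738 without replicate 1, 2 and 3, against 2006 with all samples. The fits without a replicate hold fewer samples, and the parts of lower power and of single replicates were not tested. Of the 65 genes, all those tested kept their direction (64, 65 and 61 genes). Each had changed alike in all 3 pairs, so leaving out a pair could hardly turn it, and this adds no support. With edgeR, 2 genes were called when the replicate number was left out as a block. Without the block DESeq2 called 70 genes, 50 higher and 20 lower, of which 44 were among the 65. The gene that remained without replicate 1 was prg4b, and prg4b, kif9, hsd20b2 and SELE remained both without replicate 2 and without replicate 3. No gene was called when the share of reads outside genes entered as a covariate (edgeR, 177 genes at an unadjusted p below 0.05), although 64 of the 65 genes kept their direction. The median size of their log2 fold changes was 2.29 in that fit, against 3.02 without the covariate, and the median SE was 1.07, against 0.665. FKBP5 had a log2 fold change of 3.29 ± 1.11 (SE) with the covariate, and prg4b 3.50 ± 1.04 (SE). The share of reads outside genes did not overlap between the groups, so this fit cannot separate it from the drug. The added term also costs power, and no conclusion is drawn from the lack of calls.

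Genes known as direct targets of the glucocorticoid receptor were among the clearest responses. FKBP5 (ENSDARG00000028396), which encodes a co-chaperone that lowers the affinity of the receptor for its ligand, measured 1744, 1267 and 1102 CPM in the Amp+Beclo samples, against 189.9, 102 and 139.9 CPM in the Amp samples. It averaged 1371 ± 334 CPM in Amp+Beclo and 144 ± 44.2 CPM in Amp (SD, n = 3 each), with a log2 fold change 3.29 ± 0.65 (SE), adjusted p = 0.000888. The samples did not overlap, and FKBP5 was among the 9 raised genes above 100 CPM. KLF9 (ENSDARG00000068194), a Krüppel-like transcription factor, measured 93.5, 86.8 and 83.00 CPM in the Amp+Beclo samples, against 13.6, 4.16 and 6.15 CPM in the Amp samples, a difference in which the drug-treated samples lay close together (log2 fold change 3.64 ± 0.62 (SE), adjusted p = 1.93e-05). Its relative klf13 (ENSDARG00000061368) also rose, with 16.1, 15.2 and 13.3 CPM in the Amp+Beclo samples, against 5.001, 0.231 and 2.83 CPM in the Amp samples (adjusted p = 0.0154), but its Amp sample 2 held 2 reads. DDIT4 (ENSDARG00000037618), an inhibitor of mTORC1 signalling, was low in every library, with 29, 61 and 39 reads in the Amp+Beclo samples, against 1, 2 and 9 reads in the Amp samples. It rose all the same (log2 fold change 3.51 ± 0.85 (SE), adjusted p = 0.0217), and no Amp sample reached the lowest Amp+Beclo sample in CPM.

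The list of glucocorticoid target genes, which was taken from general knowledge and chosen with earlier results of these data known, held 33 measured genes. The drug raised 6 of them, namely KLF9, FKBP5, PER1, IRS2, DDIT4 and HSD11B2, and lowered none, where 0.258% of all genes were raised. A further 7 had a higher value at an unadjusted p below 0.05 without passing the test, a level that 6.27% of all genes reached upwards, the raised ones included. The list median was 1.00 on the log2 scale, against 0.14 for all genes. PDK4, a kinase that shuts off pyruvate dehydrogenase, came closest with 52.7, 68.6 and 65.5 CPM in the Amp+Beclo samples, against 21.8, 13.1 and 11.6 CPM in the Amp samples (log2 fold change 2.07, adjusted p = 0.0794), and the drug-treated samples were all above the vehicle samples. Several targets that are often used as markers of the drug class did not pass. The tsc22d3 gene (GILZ) had a log2 fold change of 1.09 (adjusted p = 0.563), DUSP1, a phosphatase of MAP kinases, 0.16 (adjusted p = 0.944) and the NF-kB inhibitor gene nfkbiaa -0.12 (adjusted p = 0.956). For the receptor gene itself, NR3C1, the values were 70.9, 62.6 and 58.3 CPM in the Amp+Beclo samples, against 85.9, 41.3 and 32.7 CPM in the Amp samples (adjusted p = 0.812). None of the 14 genes for the receptor and its chaperones was called.

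**Figure D1:**
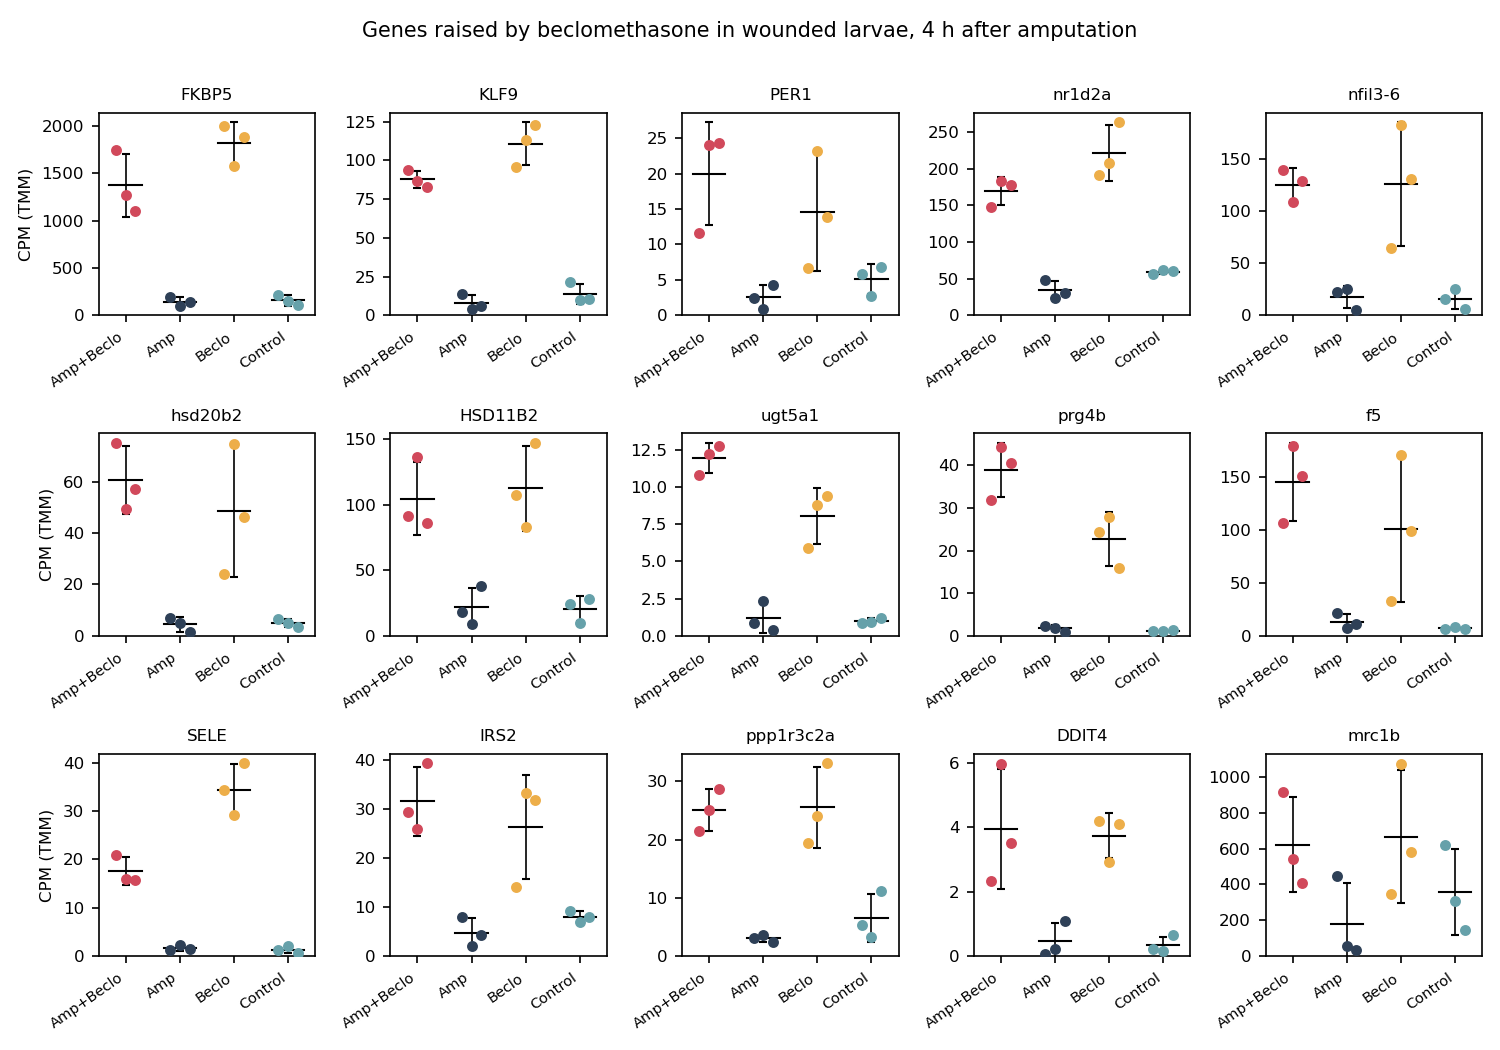
Normalised read counts (CPM, scaled by TMM) of 15 raised genes in each sample (points), with the group mean (line) and SD (bar, n = 3), from left to right for Amp+Beclo, Amp, Beclo and Control; PER1 is ENSDARG00000056885 and IRS2 is ENSDARG00000037099, and each vertical axis starts at 0. In 14 of the 15 panels the Amp+Beclo points lie above all Amp points; in mrc1b Amp sample 1 lies among them.

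Enzymes that convert steroids or conjugate small molecules were among the raised genes. The hsd20b2 gene (ENSDARG00000031336), whose product converts cortisone to an inactive 20β-hydroxy form in zebrafish, measured 75.1, 49.4 and 57.3 CPM in the Amp+Beclo samples, against 6.88, 5.09 and 1.35 CPM in the Amp samples. The lowest treated sample was well above the highest vehicle sample (log2 fold change 3.96 ± 0.63 (SE), adjusted p = 1.92e-06). HSD11B2 (ENSDARG00000001975), which oxidises cortisol to cortisone and thereby supplies that reaction, measured 91.3, 136 and 86.1 CPM in the Amp+Beclo samples, against 17.9, 8.67 and 38.11 CPM in the Amp samples (log2 fold change 2.49 ± 0.61 (SE), adjusted p = 0.0226). The next gene, ugt5a1 (ENSDARG00000016479), encodes an enzyme of the family that attaches glucuronic acid to small molecules, and had 10.8, 12.2 and 12.8 CPM in the Amp+Beclo samples, against 0.852, 2.31 and 0.369 CPM in the Amp samples (log2 fold change 3.57 ± 0.71 (SE), adjusted p = 0.000888). Among the raised genes outside the naming rule, singled out after their values were seen, SRD5A2 (ENSDARG00000043587), a steroid 5α-reductase, had 23.6, 39.6 and 40.9 CPM in the Amp+Beclo samples, against 4.09, 11.3 and 6.88 CPM in the Amp samples (adjusted p = 0.0282). The cytochrome P450 genes cyp27a3 and cyp2k6 were raised as well, cyp27a3 at 8.23, 13.7 and 11.3 CPM in the Amp+Beclo samples, against 1.42, 0.809 and 1.97 CPM in the Amp samples (adjusted p = 0.0117). Amp values of hsd20b2, ugt5a1, cyp27a3 and cyp2k6 were at or below 6.88 CPM in each sample.

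Genes tied to the circadian clock were among the raised genes. A PER1 gene (ENSDARG00000056885), a repressor of the circadian loop, measured 11.6, 23.98 and 24.3 CPM in the Amp+Beclo samples, against 2.44, 0.809 and 4.302 CPM in the Amp samples, and the groups did not overlap (log2 fold change 3.10 ± 0.65 (SE), adjusted p = 0.00245). The nuclear receptor gene nr1d2a (ENSDARG00000003820), a Rev-erb family repressor, measured 147, 184 and 178 CPM in the Amp+Beclo samples, against 47.7, 24.04 and 30.1 CPM in the Amp samples (log2 fold change 2.39 ± 0.59 (SE), adjusted p = 0.0258). The nfil3-6 gene (ENSDARG00000087188), of the bZIP repressor family that opposes D-box activators, had 139.7, 109 and 129 CPM in the Amp+Beclo samples, against 22.5, 25.1 and 5.29 CPM in the Amp samples (log2 fold change 3.08 ± 0.62 (SE), adjusted p = 0.000888). Of 25 clock genes measured, PER1 and nr1d2a passed the test, where 0.258% of all genes were raised, and none was lowered. A log2 fold change above 0 was found in 23 of them, as in 12305 of all 21742 genes. The list median was 1.04 (all genes 0.14). A count of 11 reached an unadjusted p below 0.05 upwards, which 6.27% of all genes did. The PER1 genes and PER2 also belong to the list of glucocorticoid target genes. The D-box activator gene dbpb was just outside the threshold with 6.21, 18.7 and 21.8 CPM in the Amp+Beclo samples, against 5.46, 0.116 and 3.44 CPM in the Amp samples (adjusted p = 0.0601). The core activator CLOCK (ENSDARG00000003631) had 44.1, 42.4 and 45.2 CPM in the Amp+Beclo samples, against 32.8, 12.5 and 7.87 CPM in the Amp samples, and did not pass (adjusted p = 0.316). In the other PER1 gene (ENSDARG00000012499) the log2 fold change was 0.89 (adjusted p = 0.611).

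Some raised genes encode proteins known from insulin signalling and glycogen metabolism, a grouping made after their values were seen. An IRS2 gene (ENSDARG00000037099), an adaptor of the insulin receptor, measured 29.3, 25.9 and 39.3 CPM in the Amp+Beclo samples, against 8.07, 2.08 and 4.302 CPM in the Amp samples (log2 fold change 2.88 ± 0.61 (SE), adjusted p = 0.00245). Its paralogue (ENSDARG00000075282) showed 19.05, 35.8 and 40.9 CPM in the Amp+Beclo samples, against 12.7, 3.93 and 13.9 CPM in the Amp samples, also without overlap, but did not pass (adjusted p = 0.236). The ppp1r3c2a gene (ENSDARG00000069377) encodes a subunit that directs protein phosphatase 1 to glycogen, where it favours glycogen synthesis, and measured 21.5, 25.2 and 28.7 CPM in the Amp+Beclo samples, against 3.18, 3.699 and 2.46 CPM in the Amp samples. Its treated samples were several times above each vehicle sample (log2 fold change 3.02 ± 0.62 (SE), adjusted p = 0.00125). Singled out after their values were seen, ppp1r3ab, of the same family of subunits, had 4.68, 13.3 and 26.04 CPM in the Amp+Beclo samples, against 3.18, 0.809 and 1.48 CPM in the Amp samples (adjusted p = 0.0283), and phka1b, a regulatory subunit of the kinase that starts glycogen breakdown, had 4.196, 16.7 and 28.5 CPM in the Amp+Beclo samples, against 1.59, 1.27 and 4.79 CPM in the Amp samples (adjusted p = 0.0383). Among 34 glycolysis genes none was called, where 0.299% of all genes were. In this list 22 had a log2 fold change below 0, and the median was -0.15, against 0.14 for all genes. Among 26 genes of the tricarboxylic acid cycle none was called either, 22 had a log2 fold change below 0 and the median was -0.57, against 43.4% of all genes below 0.

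Other raised genes, taken by the rank of their p-values, encode secreted or cell-surface proteins, likewise grouped after their values were seen and not tested as a set. The gene with the smallest p, prg4b (ENSDARG00000028163), encodes a proteoglycan related to the joint lubricant lubricin and measured 31.8, 44.2 and 40.6 CPM in the Amp+Beclo samples, against 2.39, 1.85 and 0.983 CPM in the Amp samples (log2 fold change 4.51 ± 0.65 (SE), adjusted p = 7.48e-08). It stayed called in 11 of the 13 alternative analyses, was not tested in the one that required 10 reads in every sample, and did not pass when the outside share of reads entered the fit. The coagulation factor V gene f5 (ENSDARG00000055705) measured 106, 179.5 and 151 CPM in the Amp+Beclo samples, against 21.7, 7.17 and 10.8 CPM in the Amp samples (log2 fold change 3.60 ± 0.63 (SE), adjusted p = 5.41e-05). SELE (ENSDARG00000042138), the table's name for a selectin that in mammals captures leukocytes on the vessel wall, measured 20.9, 16.1 and 15.8 CPM in the Amp+Beclo samples, against 1.19, 2.31 and 1.48 CPM in the Amp samples, low but without overlap (log2 fold change 3.46 ± 0.66 (SE), adjusted p = 0.000543). Among receptors and parts of the matrix, the integrin subunit gene itga6b had 163, 194 and 295 CPM in the Amp+Beclo samples, against 60.6, 21.6 and 20.9 CPM in the Amp samples (adjusted p = 0.00543). The laminin chain gene lamb3 had only 49, 86 and 103 reads in the Amp+Beclo samples, against 7, 0 and 9 reads in the Amp samples, and it passed too (adjusted p = 0.000888). The hhipl1 gene, named for its likeness to a hedgehog-interacting protein, was higher at 111, 67.4 and 47.2 CPM in the Amp+Beclo samples, against 16.1, 7.28 and 4.92 CPM in the Amp samples (adjusted p = 0.000543).

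The remaining raised genes with the smallest p-values include those for a motor protein, carriers and enzymes. The kinesin gene kif9 (ENSDARG00000031693), which is best known from cilia, had 42.5, 26.3 and 9.91 CPM in the Amp+Beclo samples, against 0.739, 0.925 and 0.8605 CPM in the Amp samples, the largest log2 fold change among the raised genes (log2 fold change 4.80 ± 0.71 (SE), adjusted p = 1.16e-07). RHCG (ENSDARG00000003203), an ammonia transporter, spread widely among the treated samples at 8.63, 25.1 and 50.7 CPM in the Amp+Beclo samples, against 1.65, 0.809 and 4.79 CPM in the Amp samples, which still did not overlap (log2 fold change 3.51 ± 0.64 (SE), adjusted p = 0.000169). The copper pump gene ATP7A had 34.1, 53.2 and 35.7 CPM in the Amp+Beclo samples, against 8.81, 2.66 and 8.48 CPM in the Amp samples (log2 fold change 2.73, adjusted p = 0.00543). A kinase gene, STK35 (ENSDARG00000086856), was among the more abundant raised genes with 232, 135 and 158 CPM in the Amp+Beclo samples, against 62.1, 23.8 and 10.9 CPM in the Amp samples (adjusted p = 0.00567). The aminopeptidase gene ANPEP had 4.196, 13.6 and 35.8 CPM in the Amp+Beclo samples, against 3.01, 0.231 and 2.58 CPM in the Amp samples, and its lowest treated sample was only slightly above its highest vehicle sample (adjusted p = 0.0131). The first raised genes without a symbol were ENSDARG00000026246 (log2 fold change 3.80, adjusted p = 0.000888) and ENSDARG00000059899 (log2 fold change 3.93, adjusted p = 0.00543). Outside the naming rule, PTGER4, a prostaglandin E2 receptor that raises cyclic AMP, had 11.7, 12.3 and 17.5 CPM in the Amp+Beclo samples, against 4.83, 0.925 and 1.598 CPM in the Amp samples (adjusted p = 0.0247). It was singled out after its values were seen.

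Of the genes linked to macrophage states, only the scavenger receptor gene mrc1b (ENSDARG00000038822), a mannose receptor, was called. It measured 917, 541 and 407 CPM in the Amp+Beclo samples, against 446, 56.1 and 35.3 CPM in the Amp samples (log2 fold change 2.66 ± 0.65 (SE), adjusted p = 0.0247). It was the most abundant raised gene after FKBP5, but Amp sample 1 lay above the lowest Amp+Beclo sample and samples 2 and 3 of Amp were much lower than sample 1. Among 28 measured genes of alternative activation and resolution, 1 was called higher (0.258% of all genes were) and none lower. In this list 20 were above 0, as were 12305 of all 21742 genes, and the median was 0.52, against 0.14 for all genes. The stab1 gene, another scavenger receptor, had 258, 248 and 159.6 CPM in the Amp+Beclo samples, against 118, 57.6 and 33.1 CPM in the Amp samples, without overlap, but did not pass (adjusted p = 0.194), as was the case for a CXCR4 chemokine receptor gene (ENSDARG00000041959) at 999.8, 467 and 360.3 CPM in the Amp+Beclo samples, against 228, 325 and 83.8 CPM in the Amp samples (adjusted p = 0.368). The other CXCR4 gene (ENSDARG00000057633) went the other way, with a log2 fold change of -0.55 (adjusted p = 0.8065). The arginase gene ARG2 had a log2 fold change of 0.12 (adjusted p = 0.955) and the chemokine receptor gene ccr2 0.20 (adjusted p = 0.919). None of 28 macrophage markers was called. Their median was -0.62, with 7 above 0 and 21 below 0 (43.4% of all genes were below 0). For csf1ra the log2 fold change was 0.67 (adjusted p = 0.696). The summed level of the macrophage markers was 28509, 12699 and 8570 CPM in the Amp+Beclo samples, against 21679, 36796 and 13165 CPM in the Amp samples, so the groups overlapped. Its part in the changes of mrc1b and of the other genes was not tested.

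Genes lowered by the drug were few and mostly at low levels. SLC12A3, clcnk and TMEM72 are genes known from kidney tubules, where SLC12A3 carries sodium chloride and clcnk conducts chloride. SLC12A3 (ENSDARG00000013855) had 1, 168 and 0 reads in the Amp+Beclo samples, against 579, 154 and 56 reads in the Amp samples (log2 fold change -4.57 ± 0.90 (SE), adjusted p = 0.000888). Its Amp+Beclo sample 2 was almost as high as Amp sample 2 in CPM and was above Amp sample 3, so the groups overlapped. The call for SLC12A3 was lost with DESeq2 with the block (log2 fold change -6.98, adjusted p = 0.106) and without the block (edgeR, -1.79, adjusted p = 0.58), and with replicates left out the log2 fold change ran from -2.43 without replicate 1 to -8.65 without replicate 2. The clcnk gene (ENSDARG00000022560) had 1, 30 and 2 reads in the Amp+Beclo samples, against 115, 42 and 51 reads in the Amp samples (log2 fold change -3.50 ± 0.85 (SE), adjusted p = 0.0217), again with Amp+Beclo sample 2 above the other treated samples but below every Amp sample in CPM. TMEM72 (ENSDARG00000069332) had only 2, 1 and 0 reads in the Amp+Beclo samples, against 24, 28 and 9 reads in the Amp samples (adjusted p = 0.0247). All 3 were thus near 0 in treated samples 1 and 3. A hormone gene, STC1 (ENSDARG00000058476), which in fish is made by the corpuscles of Stannius near the kidney, had 0, 0 and 1 reads in the Amp+Beclo samples, against 4, 7 and 103 reads in the Amp samples (adjusted p = 0.000888). Amp sample 3 held most of its reads. The same was seen in nppa (ENSDARG00000052960), a natriuretic peptide of the heart, with 0, 1 and 7 reads in the Amp+Beclo samples, against 2, 19 and 115 reads in the Amp samples (adjusted p = 0.0125), and in TG (ENSDARG00000020084), the thyroid hormone precursor thyroglobulin, with 2, 3 and 3 reads in the Amp+Beclo samples, against 7, 7 and 298 reads in the Amp samples (adjusted p = 0.04699). Without replicate 3, STC1, nppa and TG had too few reads to be tested.

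The other lowered genes were high in more than 1 Amp sample. GNG10 (ENSDARG00000104043), a gamma subunit of heterotrimeric G proteins, measured 6.46, 5.58 and 1.802 CPM in the Amp+Beclo samples, against 16.5, 49.4 and 18.6 CPM in the Amp samples (log2 fold change -2.60 ± 0.61 (SE), adjusted p = 0.0149), with no overlap. P2RX2 (ENSDARG00000002300), an ATP-gated ion channel, measured 0.565, 0.392 and 0.991 CPM in the Amp+Beclo samples, against 3.69, 6.704 and 5.04 CPM in the Amp samples (log2 fold change -2.96 ± 0.76 (SE), adjusted p = 0.0411), and its 3 vehicle samples were all several times above the treated ones. The peptidase gene cndp1 (ENSDARG00000069583) measured 8.796, 7.34 and 7.48 CPM in the Amp+Beclo samples, against 10.1, 148 and 56.1 CPM in the Amp samples (log2 fold change -2.52 ± 0.65 (SE), adjusted p = 0.0411). Amp sample 1 was close to the treated samples in cndp1, and samples 2 and 3 of Amp were much higher. None of the 9 lowered genes belongs to the cytokine, chemokine or protease lists.

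**Figure D2:**
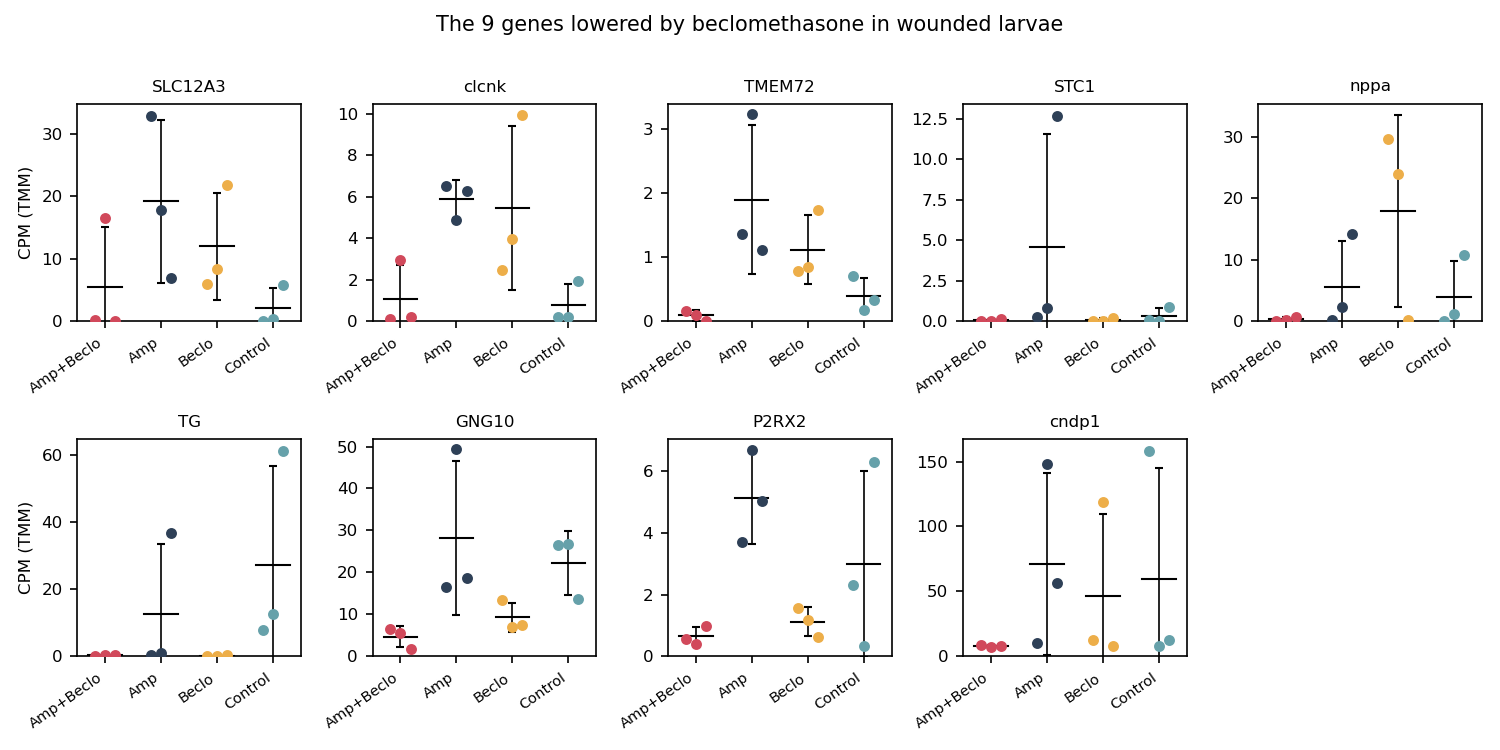
Normalised read counts (CPM, scaled by TMM) of the 9 lowered genes in each sample (points), with the group mean (line) and SD (bar, n = 3; bars are cut at 0), from left to right for Amp+Beclo, Amp, Beclo and Control. GNG10 and P2RX2 are higher in each of the 3 Amp samples, whereas STC1, nppa and TG are high mainly in Amp sample 3, and SLC12A3, clcnk and TMEM72 have higher means in Beclo than in Control.

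No inflammatory cytokine or chemokine gene passed the edgeR test, although most values were lower with the drug. Of 21 measured genes, 16 had a log2 fold change below 0, against 43.4% of all genes, with a list median of -0.69. At an unadjusted p below 0.05, 6 were lower, which 2.95% of all genes were. The neutrophil chemoattractant gene cxcl8a came closest, at 14.4, 17.7 and 6.04 CPM in the Amp+Beclo samples, against 30.9, 58.6 and 77.2 CPM in the Amp samples (log2 fold change -2.12 ± 0.59 (SE), adjusted p = 0.0794). All its treated samples were below all vehicle samples, and with DESeq2 and the block it passed (log2 fold change -2.22, adjusted p = 0.0255). The granulocyte growth factor gene csf3b had 50.3, 65.1 and 34.8 CPM in the Amp+Beclo samples, against 55.98, 487 and 358 CPM in the Amp samples (log2 fold change -2.19, adjusted p = 0.128), and passed with DESeq2 (-2.30, adjusted p = 0.035). Amp sample 1 was as low as the treated samples in csf3b, and samples 2 and 3 of Amp were far higher. This pattern recurred in the tumour necrosis factor genes, with tnfa at 1.21, 2.84 and 1.62 CPM in the Amp+Beclo samples, against 1.14, 20.6 and 17.9 CPM in the Amp samples (adjusted p = 0.207) and tnfb at 68.8, 79.9 and 68.5 CPM in the Amp+Beclo samples, against 70.01, 551 and 151 CPM in the Amp samples (adjusted p = 0.507). The interleukin gene il6 followed it too, with 8.39, 23.4 and 16.8 CPM in the Amp+Beclo samples, against 8.13, 66.6 and 42.04 CPM in the Amp samples (adjusted p = 0.5901). For il1b, the values were 173, 372 and 279.9 CPM in the Amp+Beclo samples, against 122, 451 and 719 CPM in the Amp samples, with wide overlap (log2 fold change -0.36, adjusted p = 0.847).

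Effector genes of inflammation did not pass the test either. The itaconate-forming enzyme gene ACOD1 had 395, 596 and 447 CPM in the Amp+Beclo samples, against 286, 1038 and 1087 CPM in the Amp samples (adjusted p = 0.778), and the matrix metalloproteinase genes MMP9 and mmp13a had log2 fold changes of -0.62 (adjusted p = 0.719) and -0.60 (adjusted p = 0.713). The PTGS2 genes, which encode prostaglandin synthases, had unlike values. Of these, ENSDARG00000004539 had 54.1, 106 and 138 CPM in the Amp+Beclo samples, against 104, 517 and 332 CPM in the Amp samples (adjusted p = 0.4099) and ENSDARG00000010276 had 27.03, 19.1 and 17.03 CPM in the Amp+Beclo samples, against 15.3, 20.2 and 22.99 CPM in the Amp samples (adjusted p = 0.956). Whether they differed in response was not tested. The iron hormone gene hamp had 8.55, 24.9 and 14.3 CPM in the Amp+Beclo samples, against 10.3, 195 and 38.2 CPM in the Amp samples (adjusted p = 0.3804). In all of these genes, samples 2 and 3 of Amp were above sample 1 of Amp.

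**Figure D3:**
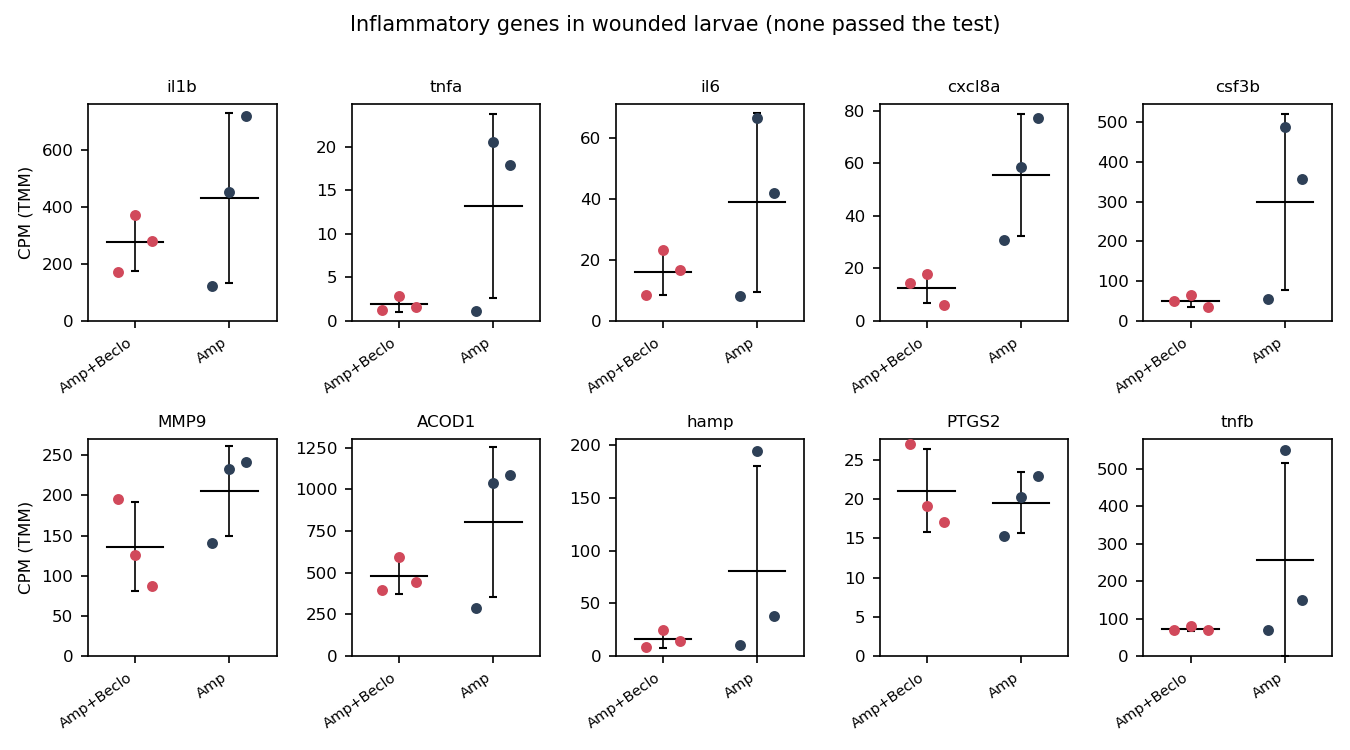
Normalised read counts (CPM, scaled by TMM) of 10 inflammatory genes in each wounded sample (points), with the group mean (line) and SD (bar, n = 3; bars are cut at 0), Amp+Beclo on the left and Amp on the right; PTGS2 is ENSDARG00000010276. The groups separate in cxcl8a, while in csf3b, tnfa, il6 and ACOD1 Amp sample 1 lies with or below the treated samples.

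Genes on the lists of Toll-like receptor and NF-kB signalling and of JAK-STAT signalling, inhibitors included, mostly had higher values with the drug. Again none passed the test. Of 30 genes of Toll-like receptor and NF-kB signalling, none was called. In this list 25 were above 0, as were 12305 of all 21742 genes, and the median was 0.53, against 0.14 for all genes. The flagellin receptor genes were among them, with tlr5a at 36.7, 41.6 and 29.7 CPM in the Amp+Beclo samples, against 26.5, 12.7 and 5.29 CPM in the Amp samples (adjusted p = 0.3297) and tlr5b at 81.02, 110.4 and 86.1 CPM in the Amp+Beclo samples, against 58.9, 67.2 and 18.3 CPM in the Amp samples (adjusted p = 0.5404). In both, the treated samples were above the vehicle samples, an ordering found in 3 of the 30 genes and in 8.77% of all genes. Of 20 JAK-STAT genes none was called and the median was 0.59, and a SOCS3 feedback inhibitor gene (ENSDARG00000025428) had 154, 154 and 124 CPM in the Amp+Beclo samples, against 50.7, 52.4 and 111 CPM in the Amp samples (adjusted p = 0.539). The other SOCS3 gene (ENSDARG00000026611) and SOCS1 had lower values, with log2 fold changes of -0.85 (adjusted p = 0.637) and -0.89 (adjusted p = 0.633). Of 19 AP-1 and immediate-early factor genes none was called and the median was -0.36. A JUNB gene (ENSDARG00000104773) had 1231, 808 and 871 CPM in the Amp+Beclo samples, against 1084, 6569 and 2566 CPM in the Amp samples (adjusted p = 0.513), with Amp sample 1 again among the treated ones. The granulocyte growth factor receptor gene CSF3R, a neutrophil marker singled out after its values were seen, lay just outside the threshold at 51.6, 125 and 109.8 CPM in the Amp+Beclo samples, against 35.4, 12.7 and 14.5 CPM in the Amp samples (log2 fold change 2.31, adjusted p = 0.0575). The neutrophil lysozyme gene lyz had a log2 fold change of -0.88 (adjusted p = 0.628).

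Cell cycle genes, a list that also holds inhibitors of the cycle, were lower in treated larvae in most cases, without passing the test. Of 24 cell cycle genes measured none was called, 19 were below 0 (43.4% of all genes were), and the median was -0.99. All treated samples were below all vehicle samples in 12 of them, which 7.06% of all genes showed. The replicative helicase gene MCM4 had 172, 120.2 and 144 CPM in the Amp+Beclo samples, against 295, 484 and 406 CPM in the Amp samples (adjusted p = 0.443) and the cyclin gene CCNA2 70.8, 42.4 and 45.1 CPM in the Amp+Beclo samples, against 84.2, 196 and 162 CPM in the Amp samples (adjusted p = 0.424). Markers of some other cells also had lower values. Of 9 erythrocyte markers, 5 were lower without overlap, which 7.06% of all genes were. The sum of all 9 was 1378, 1383 and 759.8 CPM in the Amp+Beclo samples, against 1666, 4623 and 2404 CPM in the Amp samples. The pigment cell marker sum was 182.4, 161.4 and 127.3 CPM in the Amp+Beclo samples, against 188.2, 1667 and 403.1 CPM in the Amp samples. Their part in the cell cycle values was not tested.

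**Figure D4:**
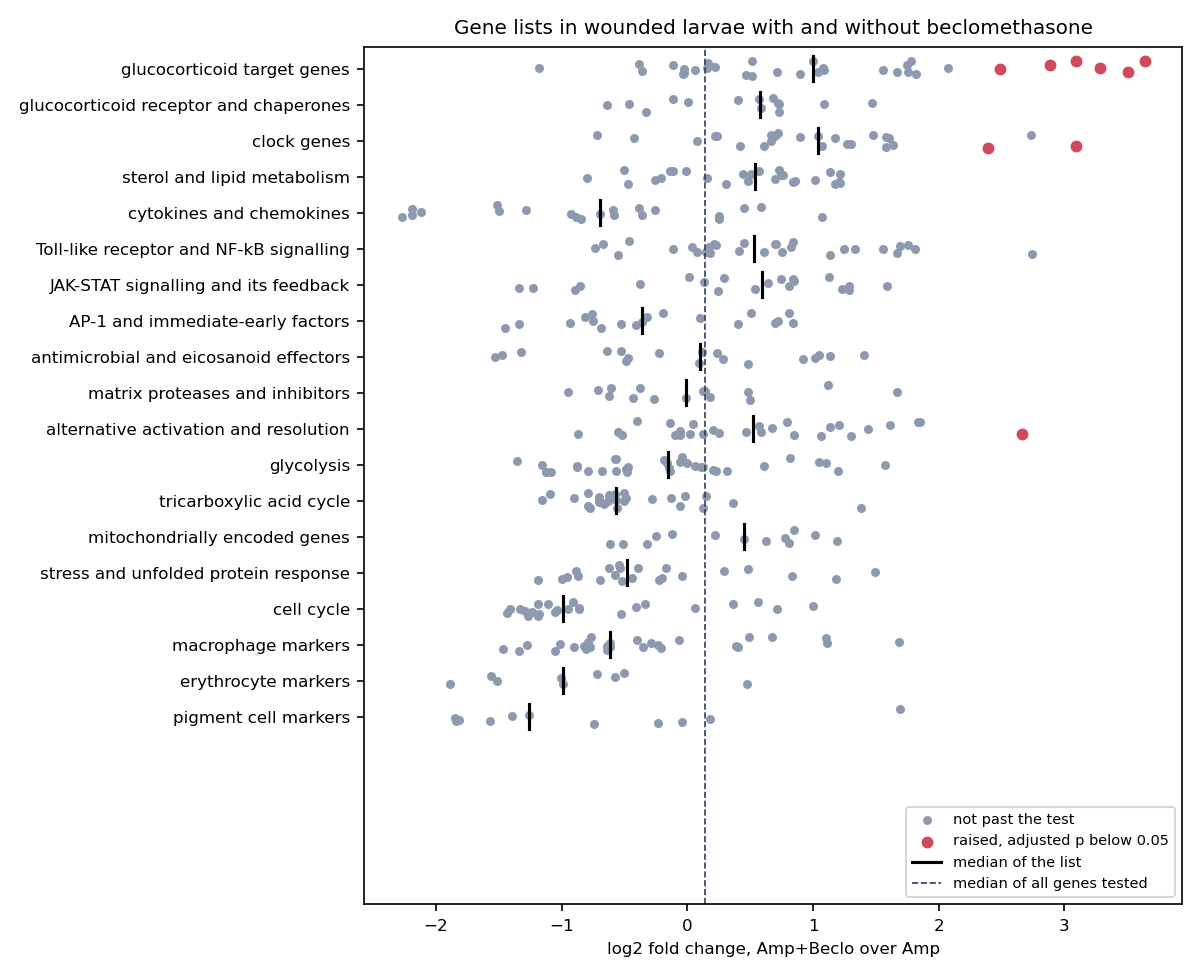
Log2 fold change of Amp+Beclo over Amp (horizontal axis) for each measured gene of 19 gene lists (rows; grey points did not pass the test, red points were raised at an adjusted p below 0.05), with the list median (black line) and the median of all genes tested (dashed line, 0.14). Called genes appear in the glucocorticoid target, clock and alternative activation lists, and the list medians run from -1.26 for pigment cell markers to 1.04 for clock genes.

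Most of the raised genes were also higher with the drug in unwounded larvae, in samples that the comparison above did not use. Of the 56 genes, 53 had a log2 fold change above 0 in Beclo against Control (47.3% of all genes did), 45 were higher in all 3 pairs (12.3% of all genes), and 41 had all Beclo samples above all Control samples (5.66% of all genes). Their median was 1.94, against -0.04 for all genes. Separately, 38 genes were called in unwounded larvae (0.172% of 22127), 37 of them higher (0.167%) and 1 lower (0.00452%), and 16 of the 56 were among them. The 16 included prg4b, kif9, hsd20b2, KLF9, f5, SELE, FKBP5, ugt5a1, nfil3-6, HSD11B2 and nr1d2a. FKBP5 measured 2004, 1579 and 1879 CPM in the Beclo samples, against 215, 149 and 105 CPM in the Control samples (log2 fold change 3.59, adjusted p = 0.00371). SELE measured 34.3, 29.1 and 39.8 CPM in the Beclo samples, against 1.21, 2.06 and 0.645 CPM in the Control samples. Its drug effect in wounded minus unwounded larvae was -1.33 ± 0.60 (SE) on the log2 scale, which did not pass the interaction test (adjusted p = 0.451, edgeR). Leaving out replicates gave 3, 140 or 101 calls in unwounded larvae without replicate 1, 2 or 3. Conversely, all 37 genes raised in unwounded larvae had a log2 fold change above 0 in wounded ones, with a median of 2.80 in unwounded and 2.00 in wounded larvae. Of these, POR, the electron donor of microsomal P450 enzymes, had 121, 179 and 86.8 CPM in the Amp+Beclo samples, against 29.3, 19.3 and 57.4 CPM in the Amp samples, without overlap, but did not pass in wounded larvae (adjusted p = 0.161). It was singled out after its values were seen.

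Some of the genes raised in wounded larvae had small values in unwounded ones. ATP7A measured 23.1, 28.9 and 35.2 CPM in the Beclo samples, against 32.1, 9.199 and 26.9 CPM in the Control samples, a log2 fold change of 0.50, against 2.73 in wounded larvae. The difference between the drug effects of ATP7A was 2.31 ± 0.66 (SE) on the log2 scale and did not pass the interaction test (adjusted p = 0.451). Over all genes the interaction called 0 of 21979 with edgeR, while 2389 (10.9%) had an unadjusted p below 0.05 and DESeq2 called 5. Of the 65 genes, 17 reached an unadjusted p below 0.05, of which 10 were raised genes with a larger drug effect in wounded larvae, 6 were lowered genes and 1 was SELE. The choice of these genes in wounded larvae favours such a count. The 9 lowered genes were not lowered alike without a wound, since of the 8 measured there 4 had a log2 fold change below 0 and 1, TG, was called lower. TG had 2, 1 and 3 reads in the Beclo samples, against 167, 145 and 760 reads in the Control samples.

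**Figure D5:**
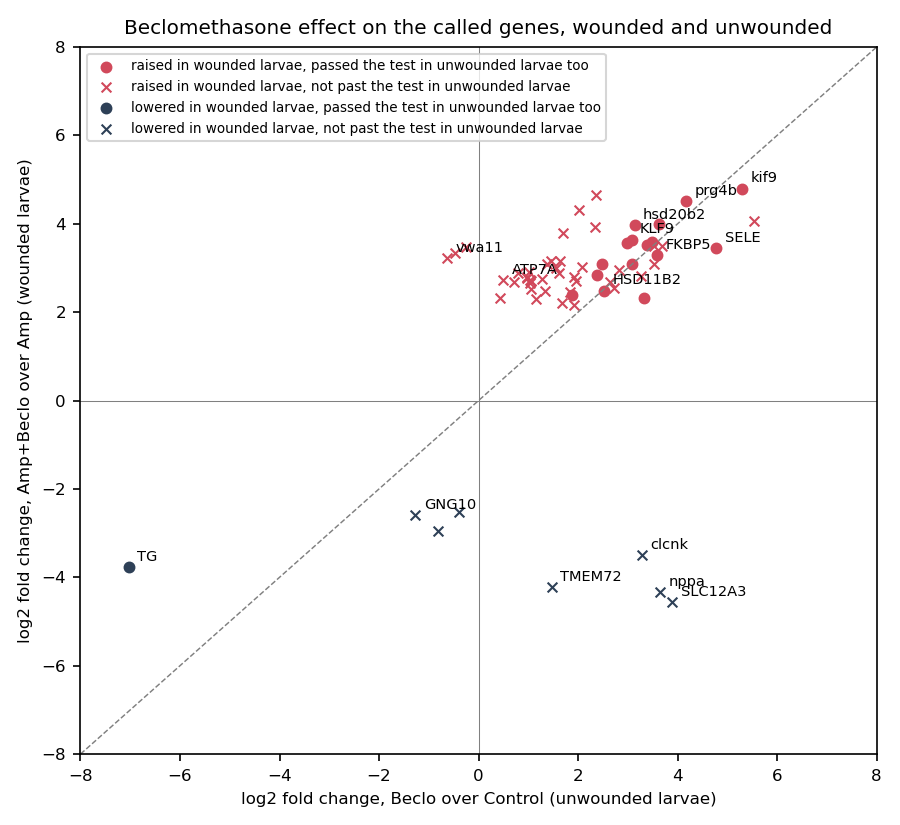
Log2 fold change by beclomethasone in wounded larvae (vertical axis, Amp+Beclo over Amp) against that in unwounded larvae (horizontal axis, Beclo over Control) for the called genes measured in both, 56 raised (red) and 8 lowered (dark); circles also passed the test in unwounded larvae, crosses did not, and the dashed line marks equal changes. The raised genes lie above 0 on the horizontal axis with 3 exceptions, and the lowered genes lie on both sides of 0.

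For the same genes, the effect of the wound alone (Amp over Control) is given side by side only, because that comparison shares the Amp samples. Over all 22107 genes it called 251 higher (1.14%) and 292 lower (1.32%). FKBP5 had a log2 fold change of -0.10 by the wound, against 3.29 by the drug in wounded larvae. In ATP7A the wound gave -1.77 and the drug 2.73. For mrc1b these values were -1.66 and 2.66. The kidney-type genes had wound values of 4.50 for SLC12A3 and 3.52 for clcnk, and drug values of -4.57 and -3.50. Among the inflammatory genes, cxcl8a had 1.83 by the wound and -2.12 by the drug, and tnfa 3.00 and -2.19.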

How the data were processed

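Sorted-cell RNA was amplified (SMART-seq V4) and sequenced. The authors deposited whole-number read counts per Ensembl gene, which were used as deposited; the submitters' processing notes name TopHat2 2.1.0 and the GRCz10 build, and the counting program is not given in the sources used here. Amplified reads without molecular identifiers are not independent molecules, so replicates carry the error. Lines that name no gene (reads outside genes, 4.72% to 11.8% of reads in the 6 samples, and ambiguous reads) were kept out of library sizes and tests.

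Genes with at least 30 reads over the 6 samples were fitted with edgeR 4.0.16 in R 4.3.3 (TMM, quasi-likelihood F test, replicate number as a block, Benjamini-Hochberg over all genes tested). The interaction used all 12 samples and genes with at least 60 reads. The SE given for edgeR values is the size of the log2 fold change divided by the square root of F. It was thus derived from the test, not estimated by the fit, and is unreliable for changes near 0. Levels are CPM on TMM-scaled libraries, and the log2 values of single pairs used a prior count of 2. The study describes 3 replicate experiments and names a paired analysis, without stating that the replicate number was a block, which was the choice made here. Over 21979 genes, deviations of same-numbered Amp+Beclo and Amp samples correlated at 0.117, -0.177 and 0.247 (mean 0.0623). For samples with different numbers the mean was -0.0344. The deviations within a group sum to 0, so this mean is tied to the former and is no separate reference. However, Amp+Beclo 1 with Amp 2 (0.339) and Amp+Beclo 2 with Amp 3 (0.314) were above every same-numbered pair. The data themselves thus show little pairing by replicate number. Nothing states that the experiments were separate clutches. The p-values of the blocked fits thus measure only the spread left between these samples after the replicate number is fitted. The fits were tested on simulated data in which same-numbered samples shared an effect. That test therefore does not bear on the choice of the block. DESeq2 1.42.0, other scalings and filters, thinning and leaving out replicates were tried as alternatives.

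Gene names came from a table that matched 26121 of 31962 identifiers, and its names in capitals can be shared by paralogues, which are then given with their identifiers; reads of near-identical copies may be split between them. Genome coordinates and sequences were not used here. The naming rule took every lowered gene and the 25 raised genes with the smallest p, changed alike in all pairs. It added a set of glucocorticoid, inflammatory and marker genes and the called members of the gene lists. Other genes are marked as singled out, except prokr1a, klf13, PDK4, cyp2k6, dbpb, CLOCK, stab1, tlr5a, MCM4, CCNA2 and the IRS2 paralogue that did not pass. These also lie outside the rule and were not chosen by it. A gene that the rule takes is not reported here. The members and lists were chosen with earlier results of these data known.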

Additional observations from a re-analysis of the deposited data

Results flagged for a closer look

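In CPM, SLC12A3, clcnk and TMEM72 were lower with beclomethasone in each of the 3 wounded pairs and higher in each of the 3 unwounded pairs. In unwounded larvae, SLC12A3 had 83, 99 and 238 reads in the Beclo samples, against 1, 3 and 71 reads in the Control samples. The clcnk gene had 35, 47 and 109 reads in the Beclo samples, against 4, 2 and 24 reads in the Control samples, and TMEM72 had 11, 10 and 19 reads in the Beclo samples, against 15, 2 and 4 reads in the Control samples. The drug effect in wounded larvae minus that in unwounded larvae was -5.62 ± 2.23 (SE) on the log2 scale for SLC12A3, -5.78 ± 1.37 for clcnk and -5.70 ± 1.22 for TMEM72. None of these differences passed the interaction test after adjustment over all genes (adjusted p = 0.451 in each, edgeR), and several libraries held fewer than 10 reads of each gene.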

How the results depend on the processing

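The 65 calls depended on the settings. Without the replicate block edgeR called 2 genes and DESeq2 70 (50 higher, 20 lower), 44 of them shared. At least 10 reads in every sample left 31 of the 65 genes and 21 calls, fitting all 12 samples together gave 25, adding the share outside genes as a term gave 0, and leaving out replicates gave 1 to 13. Scaling by library size only, chosen after seeing the data, gave 39 calls (38 higher, 1 lower) and shifted the median of all genes to 0.43 on the log2 scale, against 0.14. DESeq2 with the block called 91 genes, 57 of them shared, RLE size factors 61, no filter 56 and thinned counts 53. All 65 genes kept their direction wherever they were tested, except TG with that term (0.00498). Their choice in these same samples, with all pairs changed alike, favours this. In unwounded larvae DESeq2 called 241 genes and leaving out replicates gave 3 to 140. The interaction gave 5 calls with DESeq2. For amputation, 543 genes were called, 0 without the block, 855 with DESeq2 and 2 to 1508 with replicates left out. Of the named genes that had not passed, cxcl8a and csf3b passed with DESeq2, with the block (adjusted p = 0.0255 and 0.035) and without it (0.0245 and 0.0174). The causes were not tested.

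Among named genes that had not passed, log2 fold changes turned direction with that term for NR3C1 (-0.39), PER1 ENSDARG00000012499 (-0.10), nfkbiaa (0.81), CEBPD (0.46), il1b (0.71), tnfa (0.22), MMP9 (0.58), mmp13a (0.13), ACOD1 (0.55), SOCS1 (0.31), SOCS3 ENSDARG00000026611 (0.34), FOS (0.38), JUNB ENSDARG00000074378 (0.43), CXCR4 ENSDARG00000057633 (0.81), ccr2 (-0.47), HIF1A (0.28) and lyz (1.04). The share behind that term did not overlap between the groups, so these turns do not separate it from the drug. With library size only, the log2 fold changes turned direction for nfkbiaa (0.18) and HIF1A (0.13). Without the block they did so for ARG2 (-0.31, DESeq2 -0.42) and ccr2 (-0.25, DESeq2 -0.30). With replicates left out, the values ran from -0.43 to 0.56 for DUSP1, -0.62 to 0.28 for nfkbiaa, -0.98 to 0.10 for CEBPD, -0.93 to 0.094 for il1b, -0.30 to 0.75 for ARG2, -0.37 to 0.35 for PTGS2 ENSDARG00000010276, -1.19 to 0.23 for CXCR4 ENSDARG00000057633, -0.50 to 0.90 for ccr2, -0.43 to 0.20 for HIF1A and -0.94 to 0.38 for MPEG1 ENSDARG00000055290. Genes with under 10 reads in some libraries, such as STC1 and TMEM72, have poorly known fold changes at this depth.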

Other observations

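Gene lists not described above held no called gene in wounded larvae. The 26 measured genes of sterol and lipid metabolism had a median log2 fold change of 0.54 (18 above 0), and the 13 mitochondrially encoded genes 0.45 (8 above 0). The 22 stress and unfolded protein response genes had a median of -0.48 (17 below 0). The 18 antimicrobial and eicosanoid effector genes had a median of 0.10 and the 15 matrix protease and inhibitor genes -0.01. Among markers of other cells, the medians were -0.60 for 16 muscle, -0.21 for 16 epidermal, -0.16 for 15 neural, -0.99 for 9 erythrocyte, -1.26 for 11 pigment cell, 0.19 for 8 neutrophil, 0.19 for 7 endothelial, -0.03 for 11 fibroblast and cartilage and 0.30 for 10 liver and yolk genes, beside 0.14 for all genes.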
